A study of Mus musculus with 40 samples.

Results

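The comparison set the kidneys of 5 mice given TCDD at 1 µg/kg against the kidneys of 5 mice given vehicle. TCDD is a chlorinated dioxin that persists in tissue and binds the aryl hydrocarbon receptor (AhR). The 10 libraries were taken from a series of 40 by the dose in their labels, 1 for the treated side and 0 for the control side, and all genes were considered. All mice were male C57BL/6, and the series text gives the substrain C57BL/6NCrl. Every mouse was gavaged every 4 days, 7 times over 28 days, starting at 30 days of age and ending at 58, with 0.1 mL of sesame oil alone or with TCDD in it. Each library is bulk RNA of 1 right kidney of 1 mouse. Replicate numbers 1 to 5 only name the libraries within a group, in order of deposition, and lists of values below follow that order. The other 30 libraries, 5 each at 0.03, 0.1, 0.3, 3, 10 and 30 µg/kg, entered the fit and give the levels at neighbouring doses.

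AhR is a ligand-activated transcription factor. With its partner ARNT it binds DNA at a short core sequence and induces a battery of genes of foreign-compound metabolism, with Cyp1a1 as the usual readout. Interferons act through another route. Interferon gamma acts through a palindromic DNA site (GAS) and induces the transcription factor IRF1, the regulators of antigen presentation NLRC5 and CIITA, and families of large GTPases that act against pathogens inside cells. Type I interferons activate a complex with STAT2 and IRF9, which binds an interferon response element in genes of antiviral defence. MHC class I displays peptides cut by the immunoproteasome and carried by the TAP transporter, and MHC class II displays peptides taken up by antigen-presenting cells such as macrophages and dendritic cells.

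At 1 µg/kg, Cyp1a1 rose 42.1-fold. The other genes that rose included 16 GTPases of the GBP and IRG families, 13 genes of MHC class I and 9 of MHC class II presentation, and 11 genes of the type I interferon list with Irf1 among them. Of the AhR battery, 2 of 19 tested genes passed the threshold given next, Cyp1a1 and Aldh3a1. Of 17345 genes tested with edgeR's quasi-likelihood test, 89 were called, meaning a Benjamini-Hochberg adjusted p under 0.05 over all genes, which is 0.513%. Of these, 88 were higher at 1 µg/kg (0.507% of genes tested) and 1, Suox, was lower (0.00577%). The log2 fold changes of the 88 ran from 0.39 to 5.40 with a median of 1.14, and 55 of the 89 changed at least 2-fold. The median over all genes tested was 0.0062, and 51.66% of them had positive values. In 76 of the 89 genes the 5 treated libraries lay entirely on one side of the 5 vehicle libraries. Over all genes tested, all 5 treated libraries lay above all 5 vehicle libraries in 206 genes (1.19%) and below them in 95. In 10 further fits that left out 1 of the 10 libraries each, 60 of the 89 were called every time, and the genes that were not are named below. The 2 deposited columns of counts on a single strand held similar shares, 55.64 to 56.14% and 54.0 to 54.41%, of the unstranded counts used here. The second of these columns holds fewer counts than the unstranded one, so its fit is not at equal depth. With this column, 60 genes were called, 50 of them among the 89. The other 39 of the 89 kept their direction without passing the test.

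**Figure D1:**
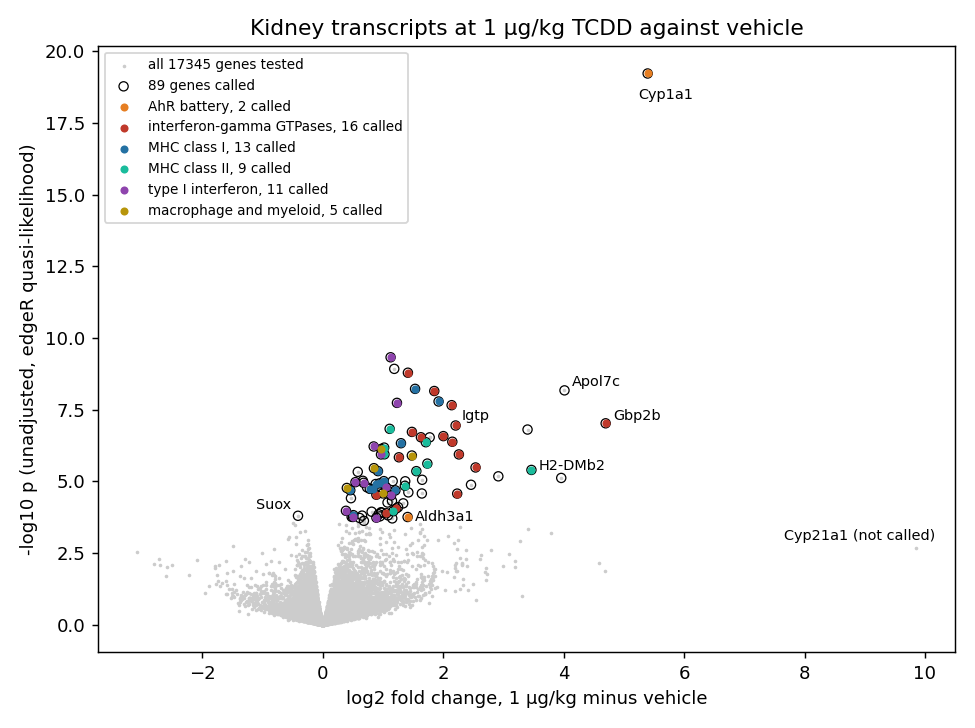
Log2 fold change at 1 µg/kg against vehicle (x axis) and -log10 of the unadjusted p of edgeR's quasi-likelihood test (y axis) for the 17345 genes tested, 1 point per gene, with the 89 called genes circled and those of 6 gene groups coloured. Cyp1a1 stands alone at the upper right with a log2 fold change of 5.40, Suox is the called gene on the left, and Cyp21a1, which is high in 1 treated library only, was not called.

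Total gene counts ran from 15746356 to 23738125 per library. Mitochondrial genes took 7.681 to 9.652% of counts, and the top 10 genes of a library took 13.24 to 15.04%. The unit of level is CPM, a gene's count brought to a common library size with TMM factors. Kidney markers were high in all 10 libraries: Umod of the thick ascending limb was at 556 to 1484 CPM with vehicle and 982 to 1509 at 1 µg/kg, and the proximal tubule phosphate carrier Slc34a1 was at 6544 to 8171 and 6037 to 7025 CPM. Vehicle replicates 1 and 2 stood apart on the first principal component of the 10 libraries, at -49.4 and -45.8, against -2.2 to 26.4 for the other 8. Their summed thick ascending limb markers were 2223 and 2530 CPM, below the 3273 to 4935 CPM of the other 8 libraries.

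Replicate 4 at 1 µg/kg held adrenal transcripts. Star, which carries cholesterol into mitochondria for steroid synthesis, was at 185 CPM there, against 3.19 to 6.02 CPM in the other 4 treated libraries and 3.79 to 5.31 CPM with vehicle. Cyp21a1, the steroid 21-hydroxylase, was at 179.7 CPM and at most 0.579 CPM in the other 9 libraries. Of 16 adrenal cortex markers 14 were highest in this library, as were 10 of 12 medulla markers, among them Th (11.1 CPM) and Dbh (11.4 CPM), which were at 0 in the other 9. The summed cortex list was 1160.3 CPM there and 149.9 to 166.1 CPM in the other 9 libraries. Neither Star (adjusted p = 0.260) nor Cyp21a1 (adjusted p = 0.211) was called. Without this library 64 genes were called, all higher and all among the 89, and with the log2 adrenal cortex level as a covariate 71 were called, again all among the 89. Counts of called members without it stand beside each gene group below. Of the libraries at other doses, replicate 1 at 0.03 µg/kg held similar levels (Star 178 CPM, Cyp21a1 152 CPM) and replicate 2 at 3 µg/kg lower ones (Star 14.0 CPM, Cyp21a1 8.93 CPM). Without all 3 libraries 60 genes were called, 59 of them among the 89.

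**Figure D2:**
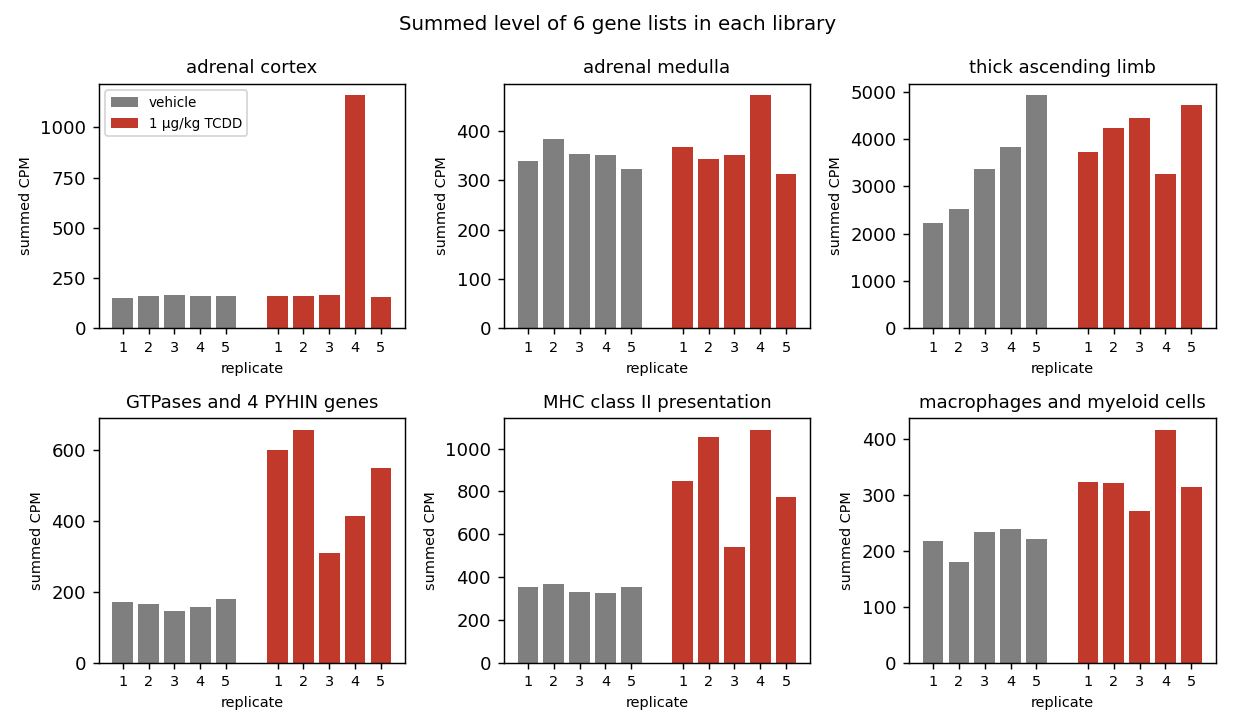
Summed CPM of 6 gene lists (y axis) in each of the 5 vehicle and 5 treated libraries (x axis, replicate number). Treated replicate 4 stands alone in the adrenal cortex panel at 1160.3, the 5 treated libraries lie above all vehicle libraries for the list of GTPases and PYHIN genes and the MHC class II and myeloid lists, and treated replicate 3 is the lowest treated library in those 3 panels.

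Cyp1a1 (ENSMUSG00000032315), a cytochrome P450 of foreign-compound oxidation, was at 1.15, 4.00, 1.60, 3.42 and 1.70 CPM with vehicle and at 90.7, 99.4, 87.0, 118 and 101 CPM at 1 µg/kg. The lowest treated library was many times above the highest vehicle library. The means were 2.37 ± 1.25 and 99.3 ± 12.1 CPM (SD, n = 5 each), a log2 fold change of 5.40 ± 0.27 (SE) with an adjusted p of 1.016e-15 (edgeR). Aldh3a1, an aldehyde dehydrogenase, was at 1.21, 1.32, 1.04, 0.854 and 0.566 CPM with vehicle and 3.09, 2.14, 2.19, 4.66 and 1.24 CPM at 1 µg/kg. The groups overlapped by 1 treated library, replicate 5. It rose by a log2 fold change of 1.41 ± 0.35 (SE, adjusted p = 0.03572), and the call was lost on leaving out treated replicate 1 (0.1017) or 4 (0.2856) or vehicle replicate 1 (0.05183), 3 (0.08465), 4 (0.0938) or 5 (0.1389). It was also lost with single-strand counts (0.6777), with the adrenal covariate (0.1342), in a fit of the 10 libraries alone (0.1353) and without vehicle replicates 1 and 2 (0.06929).

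The remaining battery genes were not called. Cyp1b1, a relative of Cyp1a1, was at 21.4, 24.0, 19.9, 24.2 and 25.5 CPM with vehicle and 29.5, 39.4, 26.9, 32.7 and 34.3 CPM at 1 µg/kg, so the groups did not overlap. Its log2 fold change was 0.50 ± 0.15 (SE, adjusted p = 0.1645), and the adjusted p ran from 0.03857 in a fit of the 10 libraries alone, the one setting that called it, to 0.6703 without vehicle replicates 1 and 2. Ahrr, which encodes a repressor of AhR, had a log2 fold change of 1.11 (adjusted p = 0.3466) with 4 of 5 treated libraries above all vehicle libraries. The quinone reductase gene Nqo1, shared with the NRF2 pathway, had 0.44 (adjusted p = 0.4021). Cyp1a2 was at 0 to 0.501 CPM in all 10 libraries. Tiparp, a feedback inhibitor of AhR (-0.048), Ahr itself (-0.063) and Arnt (-0.013) had log2 fold changes near 0, with adjusted p-values of 0.9729 and above. Over the list, 2 of 19 tested members were called, 12 had positive values and the median log2 fold change was 0.37. Of all genes tested, 0.513% were called and 51.66% had positive values. At an unadjusted edgeR p under 0.05 there were 7 of the 19, all higher, beside 7.09% of all genes tested.

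Transcription factors of the interferon response were among the genes that rose. Irf1 was at 12.0, 10.4, 13.5, 11.4 and 13.1 CPM with vehicle and 25.9, 37.9, 20.5, 28.6 and 29.0 CPM at 1 µg/kg, with no overlap (log2 fold change 1.23 ± 0.18, SE, adjusted p = 3.507e-05). Stat2 and Irf9 of the type I complex rose by log2 fold changes of 0.54 (adjusted p = 0.004096) and 0.50 (adjusted p = 0.03572). Stat2 was called in all 10 fits that left out 1 library, and not with single-strand counts (adjusted p = 0.4022) or without both vehicle replicates 1 and 2 (0.08401). Irf9 was called in 2 of the 10 fits that left out 1 library, those without treated replicate 3 and vehicle replicate 1, and reached an adjusted p of 0.17 without vehicle replicate 5. Irf8, an interferon-regulated factor of myeloid cells, rose by 0.67 (adjusted p = 0.003911).

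Interferon transcripts themselves were scarce. Ifng was at 0 in all 5 vehicle libraries and at 0.295 and 0.0622 CPM in treated replicates 1 and 5, with 0 in the other 3, so it did not pass the filter on low counts. A count of 0 allows up to 3 counts in a library. Ifnb1 was at 0 in all 10 libraries. The receptor subunit Ifngr1 was at 30.3 to 35.0 CPM with vehicle and 33.8 to 35.9 CPM at 1 µg/kg, and Ifngr2 was at 19.5 to 24.6 and 18.7 to 20.5 CPM. The groups overlapped for both receptor subunits.

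The list of interferon-gamma GTPases had the highest median of the 36 gene lists. Its 24 members, all tested, are 20 GTPases and 4 PYHIN genes, which are DNA sensors and not GTPases. Of the GTPases 16 were called, all higher, and all 20 had positive values with a median log2 fold change of 1.74. Among all genes tested, 0.513% were called and 51.66% had positive values. None of the PYHIN genes was called (median 0.61), and the median over the whole list was 1.48. Igtp, an IRG GTPase, was at 12.9, 13.1, 8.50, 13.7 and 13.2 CPM with vehicle and 74.1, 78.4, 29.2, 43.1 and 57.1 CPM at 1 µg/kg (2.21 ± 0.33, SE, adjusted p = 0.0001622). The treated libraries spread more than 2-fold among themselves, and all were well above the vehicle libraries. Gbp2, a guanylate-binding protein gene, was at 8.75, 10.4, 7.21, 11.0 and 10.7 CPM with vehicle and 28.7, 29.5, 17.6, 25.8 and 26.1 CPM at 1 µg/kg (1.41 ± 0.18, SE, adjusted p = 7.002e-06). The 2 groups of libraries did not overlap.

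Other IRG members that rose were Irgm1 (log2 fold change 1.27), Irgm2 (2.00), Iigp1 (2.26), Ifi47 (1.63), Tgtp1 (2.54) and Tgtp2 (2.14). Of the GBP family, Gbp3 (1.48), Gbp4 (1.85), Gbp5 (1.22), Gbp6 (2.15), Gbp7 (1.06), Gbp9 (0.89) and Gbp10 (2.23) rose. Gbp2b had at most 1 count in any vehicle library and was at least 7.77-fold higher against a floor of 3 counts per library. Tgtp1 and Tgtp2 are near-identical copies, and Gbp6 and Gbp10 share 29.0% and 46.3% of their exonic bases with Gm43302. Reads with several places and ambiguous reads were counted for no gene, so the single values of these genes are uncertain. Gbp8, Gbp11, Gvin1, Gm4951 and the PYHIN genes Ifi203, Ifi204, Ifi205 and Ifi207 were not called. Gbp5 lost its call without treated replicate 1, 2 or 5 or vehicle replicate 3 or 4 (adjusted p up to 0.0998), and Gbp7 without treated replicate 1, 2 or 5 or vehicle replicate 1, 2 or 4 (up to 0.148). The summed level of the 20 GTPases was 148 ± 13.5 CPM with vehicle and 483 ± 141 CPM at 1 µg/kg (SD, n = 5 each). Without treated replicate 4, 16 members were called, and without vehicle replicates 1 and 2, 14. In the latter fit Gbp7, Gbp9 and Gbp10 lost their calls, so the 14 include a member not among the 16. With single-strand counts 13 were called, Gbp5, Gbp7 and Gbp9 being lost.

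The summed myeloid markers were also higher in the treated libraries. The list of 33 macrophage and myeloid genes summed to 179 to 239 CPM with vehicle and 271 to 416 CPM at 1 µg/kg, without overlap, and none of its defining markers Adgre1, Csf1r, Cd68 and C1qa was at 0 in any library. Csf1r, the receptor for macrophage colony-stimulating factor, did not separate the groups, at 29.6, 28.5, 76.7, 84.3 and 80.4 CPM with vehicle and 74.6, 83.8, 75.1, 80.8 and 75.4 CPM at 1 µg/kg (adjusted p = 0.7449). Its low values were in vehicle replicates 1 and 2, the libraries that stood apart. Single members that were called, 5 of the 33, are given further on. The myeloid sums were 322, 321, 271, 416 and 315 CPM in treated replicates 1 to 5. Those of the list of GTPases and PYHIN genes were 598, 655, 308, 413 and 549 CPM. Replicate 3 was lowest in both lists, while replicate 4 was highest for the myeloid list and replicate 2 for the GTPase list. The part of these cells in the rise of the GTPases and of the presentation genes below was not tested. In bulk kidney, more cells of a type and more RNA per cell cannot be told apart.

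To show how these genes differ before their start sites, the 250 bases upstream of 4 interferon-related genes and of Cyp1a1 are printed, from RefSeq on GRCm38.p6. They were chosen after the search for motifs. Capitals mark letters that match the AhR core in Cyp1a1, GAS in Irf1 and the interferon response element core in Gbp2. In Igtp they mark GAS followed by the element core. Binding at these letters was not tested, and sites beyond the 250 bases were not searched. Tap1 is shown as a member that rose without either interferon motif in its window. The windows lie at chr9:57697363-57697612 (Cyp1a1), chr11:53769764-53770013 (Irf1, the first of 2 start sites), chr3:142620413-142620662 (Gbp2), chr11:58199306-58199555 (Igtp) and chr17:34187306-34187555 (Tap1), all on the plus strand.
Cyp1a1: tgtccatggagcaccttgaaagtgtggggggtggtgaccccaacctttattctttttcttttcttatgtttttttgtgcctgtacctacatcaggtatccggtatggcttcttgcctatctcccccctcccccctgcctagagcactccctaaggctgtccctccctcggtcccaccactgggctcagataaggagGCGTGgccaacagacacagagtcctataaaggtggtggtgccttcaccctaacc
Irf1: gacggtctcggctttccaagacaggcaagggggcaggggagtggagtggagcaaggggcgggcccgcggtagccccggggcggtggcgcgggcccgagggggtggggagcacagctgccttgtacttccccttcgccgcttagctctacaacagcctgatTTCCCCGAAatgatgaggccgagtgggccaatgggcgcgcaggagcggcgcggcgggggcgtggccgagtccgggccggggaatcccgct
Gbp2: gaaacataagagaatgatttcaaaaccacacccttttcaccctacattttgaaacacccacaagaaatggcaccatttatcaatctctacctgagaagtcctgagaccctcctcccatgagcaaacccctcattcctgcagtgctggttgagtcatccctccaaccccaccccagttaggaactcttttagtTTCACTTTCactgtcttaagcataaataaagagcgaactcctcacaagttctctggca
Igtp: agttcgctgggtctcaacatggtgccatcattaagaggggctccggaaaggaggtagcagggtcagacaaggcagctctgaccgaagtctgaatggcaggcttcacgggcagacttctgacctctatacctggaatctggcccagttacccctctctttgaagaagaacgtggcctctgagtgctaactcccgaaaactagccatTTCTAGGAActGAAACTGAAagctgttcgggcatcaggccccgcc
Tap1: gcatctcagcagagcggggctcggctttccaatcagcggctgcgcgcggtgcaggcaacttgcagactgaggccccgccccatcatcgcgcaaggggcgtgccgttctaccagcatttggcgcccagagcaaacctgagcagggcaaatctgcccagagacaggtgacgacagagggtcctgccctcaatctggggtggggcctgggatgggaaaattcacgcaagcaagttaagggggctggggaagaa

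The motifs searched were the AhR core GCGTG, the interferon response element core GAAANNGAA (TTCNNTTTC on the other strand) and GAS as TTCNNNGAA, which is its own reverse complement. Both strands were read, and the last 2 motifs can overlap. The AhR core match of Cyp1a1 starts 54 bases before the start site, GAS of Irf1 90 bases and the element of Gbp2 58 bases. GAS and the element of Igtp start 45 and 34 bases before its start site. Cyp1a1 also holds the letters TTCTTTTTC 201 bases before its start, and Irf1 and Tap1 also hold AhR core matches, left in lower case. Of the 88 genes called higher, 61 were matched to the RefSeq table by symbol, 8 of them with more than 1 window.

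The interferon response element core was in a window of 21 of the 61 genes (34.4%), against 8.18% of all 27025 genes of the table and 7.79% of 12201 tested genes. GAS was in 13 (21.3%), against 8.13% and 7.33%. The AhR core was in 15 (24.6%), against 30.9% and 46.6%. These shares are descriptions of the letters in the windows. Among the genes with the element core were Gbp2b, Gbp3, Irgm1, Irgm2, Tgtp1, Tgtp2, Ctss, B2m, Ifit1 and Cxcl9. Nlrc5, Ciita, Cd74, H2-Ab1 and Aldh3a1 had no entry matched by symbol.

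Of the genes of MHC class I presentation, 13 of 24 tested were called, all higher, beside 0.513% of all genes tested. The list median log2 fold change was 0.60. Nlrc5, the transactivator of class I genes, was at 4.20, 5.16, 4.83, 4.27 and 4.87 CPM with vehicle and 22.3, 20.9, 11.8, 14.3 and 19.4 CPM at 1 µg/kg (1.92 ± 0.27, SE, adjusted p = 3.507e-05). Psmb9, an immunoproteasome subunit, was at 3.86, 4.86, 4.88, 4.66 and 4.98 CPM with vehicle and 14.9, 14.6, 10.1, 14.9 and 12.9 CPM at 1 µg/kg (1.53 ± 0.21, SE, adjusted p = 1.741e-05). Both rose in every treated library, with the lowest value at least 2-fold over the highest vehicle value. B2m, the light chain of class I, was at 255, 210, 189, 209 and 207 CPM with vehicle and 434, 473, 261, 487 and 405 CPM at 1 µg/kg (0.94 ± 0.18, SE, adjusted p = 0.004321). Treated replicate 3 was just above vehicle replicate 1 for B2m, and the other 4 treated libraries were far above it.

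The heavy chains H2-K1 (1.01), H2-D1 (0.78), H2-Q4 (0.99), H2-Q6 (0.88), H2-Q7 (0.92) and H2-T23 (0.51) rose, as did the immunoproteasome subunits Psmb8 (1.21) and Psmb10 (0.84), the peptide transporter subunit Tap1 (1.30) and its partner tapasin, Tapbp (0.46). The class I heavy chain genes are related in sequence, and reads that fit several of them were counted for no gene. Tap1 and Psmb9 lie antisense to each other and share 3.9% and 5.8% of their exonic bases, which an unstranded count cannot separate. Tap2, Tapbpl, Erap1, Psme1, Psme2 and the general chaperones Calr (-0.076) and Pdia3 (-0.086) were not called. The summed list was at 2491 to 2806 CPM with vehicle and 2860 to 3683 CPM at 1 µg/kg. H2-T23 lost its call without treated replicate 1, 2, 4 or 5 or vehicle replicate 1 or 2 (adjusted p up to 0.161). Without treated replicate 4, 12 members were called, and without vehicle replicates 1 and 2, 7 were called. With single-strand counts H2-Q7 (adjusted p = 0.187), Psmb8 (0.0794) and Tapbp (0.0518) lost their calls.

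Class II presentation showed the highest share of called members of the 36 lists, 9 of 12 tested, beside 0.513% of all genes tested. The GTPases taken without the PYHIN genes of their list had 16 of 20 called, a higher share. All 12 class II genes had positive values with a median log2 fold change of 1.14. Ciita, the class II transactivator, was at 3.11, 4.30, 4.36, 3.81 and 4.70 CPM with vehicle and 11.6, 12.6, 6.51, 8.95 and 12.7 CPM at 1 µg/kg (1.36 ± 0.28, SE, adjusted p = 0.004946). Cd74, the invariant chain, was at 116, 120, 106, 109 and 120 CPM with vehicle and 317, 432, 184, 441 and 300 CPM at 1 µg/kg (1.55 ± 0.28, SE, adjusted p = 0.002118). H2-Ab1, a class II beta chain, was at 58.1, 60.8, 57.9, 51.8 and 61.2 CPM with vehicle and 188, 249, 106, 245 and 162 CPM at 1 µg/kg (1.71 ± 0.27, SE, adjusted p = 0.0003731). For these 3 genes the vehicle libraries lay close together and the treated libraries spread about 2-fold, with no overlap.

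H2-Aa (1.11), H2-Eb1 (1.03), the peptide-loading genes H2-DMa (1.74), H2-DMb1 (1.17) and H2-DMb2 (3.47), and the invariant chain protease Ctss (1.02) also rose. H2-Ob (0.12), Ifi30 (0.014) and Cd83 (1.11, adjusted p = 0.1175) were not called. H2-DMb1 lost its call without treated replicate 1, 2, 4 or 5 or vehicle replicate 2, 3 or 4 (adjusted p up to 0.114) and with single-strand counts (0.163). The summed list was at 324 to 368 CPM with vehicle and 540 to 1087 CPM at 1 µg/kg. Treated replicate 4, the library with adrenal transcripts, was the highest treated library in 5 of the 9 genes. Without it 8 were called, and without vehicle replicates 1 and 2, 6 were called. H2-Ab1, Cd74 and the other class II genes are expressed by antigen-presenting cells, and the summed myeloid list was also higher in the treated libraries, as stated above.

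**Figure D3:**
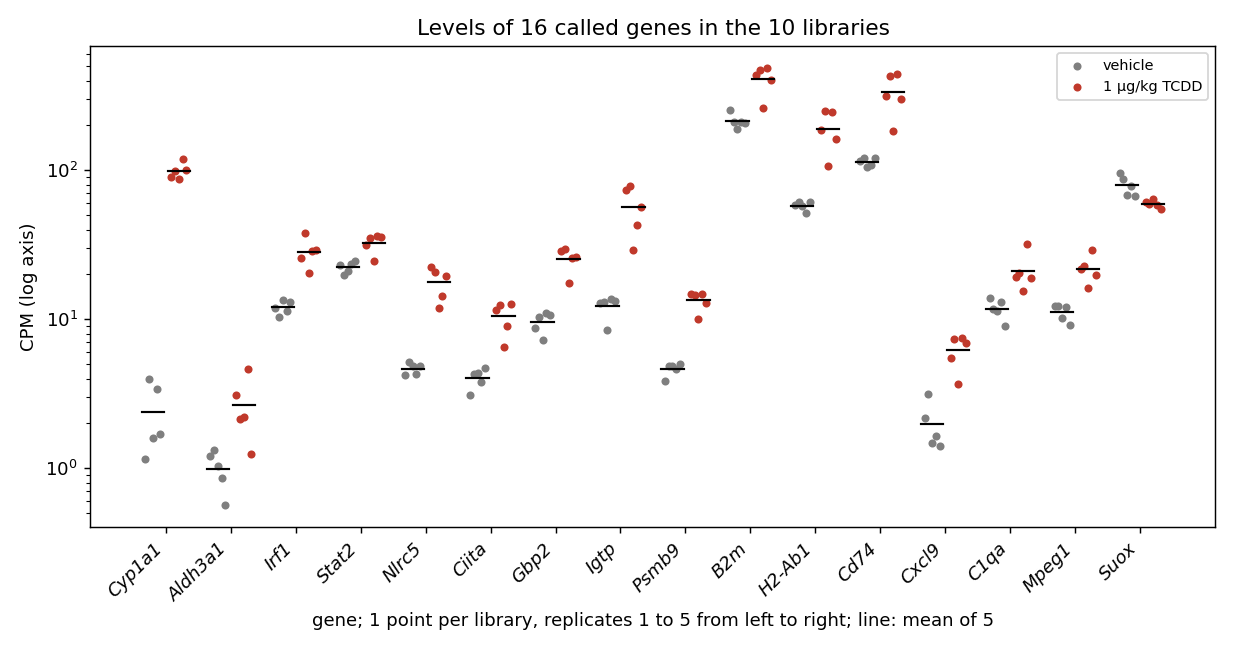
CPM on a log axis (y) of 16 called genes (x) in the 5 vehicle and 5 treated libraries, 1 point per library with replicates 1 to 5 from left to right and a line at the mean. Cyp1a1 shows the widest gap, from at most 4.00 CPM with vehicle to at least 87.0 CPM at 1 µg/kg, and Suox is the gene whose treated libraries lie below.

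Of 48 genes of the type I interferon response, all tested, 11 were called and 47 had positive values, with a list median log2 fold change of 0.58. The shares over all genes tested were 0.513% called and 51.66% positive. All 5 treated libraries lay above the vehicle libraries in 16 of the 48, beside 1.19% of all genes tested. Beside Stat2, Irf1 and Irf9, called genes included Parp14 (0.97), Oasl2 (0.85), Ifit1 (1.13), Rtp4 (1.04), Bst2 (0.89), Lgals3bp (0.68) and Samhd1 (0.39). Oasl2, of the oligoadenylate synthetase family, was at 8.98, 9.57, 7.85, 8.67 and 6.96 CPM with vehicle and 17.2, 17.5, 10.4, 16.9 and 13.4 CPM at 1 µg/kg (SE 0.15, adjusted p = 0.0004772), without overlap. Some antiviral genes usually taken as type I readouts, such as Ifit1, were called, and others were not. Not called were Isg15 (0.90, adjusted p = 0.2644), Mx1 (1.25, adjusted p = 0.3466), Oas3 (2.09, adjusted p = 0.1105), Ifit3 (0.70, adjusted p = 0.2582) and Rsad2 (0.19, adjusted p = 0.8955). Isg15, Mx1 and Oas3 nevertheless lay above all vehicle libraries in all 5 treated libraries. Samhd1 lost its call without treated replicate 1, 2, 4 or 5 or vehicle replicate 2, 3 or 5 (adjusted p up to 0.143), and Bst2 kept its call only without treated replicate 3 (up to 0.152 otherwise). At an unadjusted edgeR p under 0.05 there were 36 of the 48, all higher, beside 7.09% of all genes tested. DESeq2 called 16, all higher. The edgeR count was 8 without treated replicate 4 and 5 with single-strand counts, where Stat2, Irf9, Parp14 (adjusted p = 0.094), Ifit1 (0.082), Rtp4 (0.338) and Samhd1 (0.41) lost their calls.

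Among 33 myeloid genes 5 were called and 30 had positive values, with a list median log2 fold change of 0.70. The shares over all genes tested were 0.513% called and 51.66% positive. At an unadjusted edgeR p under 0.05 there were 24 of the 33, all higher, beside 7.09% of all genes tested. C1qa, a chain of complement C1q made by macrophages, was at 13.9, 11.7, 11.3, 13.0 and 8.94 CPM with vehicle and 19.3, 20.3, 15.5, 31.9 and 19.0 CPM at 1 µg/kg (0.85 ± 0.16, SE, adjusted p = 0.001819). Mpeg1, the macrophage pore protein perforin-2, was at 12.3, 12.2, 10.3, 12.0 and 9.11 CPM with vehicle and 21.6, 22.9, 16.1, 29.2 and 19.8 CPM at 1 µg/kg (0.97 ± 0.17, SE, adjusted p = 0.0005332). Both separated the groups fully, with the adrenal-containing replicate 4 highest. Adgre1, which encodes the macrophage marker F4/80, rose by 1.00 (adjusted p = 0.007465) and lost its call without treated replicate 4 (adjusted p = 0.08644). Fcgr4, an Fc receptor gene, rose by 1.48 and Lcp1, an actin bundler of white blood cells, by 0.40. In a fit of the 10 libraries alone, Fcgr4 (adjusted p = 0.05569) and Lcp1 were not called. C1qb was not called (0.58, adjusted p = 0.05312). The count of 5 became 9 without vehicle replicate 1 and 8 without treated replicate 3, and 4 without treated replicate 4 or without vehicle replicates 1 and 2. It was 3 with single-strand counts, where C1qa had an adjusted p of 0.0991, Adgre1 0.0671 and Lcp1 0.207 and 1 further member was called, and 8 with DESeq2.

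No T, NK or B lymphocyte gene was called by edgeR among 30 tested, which is near the 0.513% called of all genes tested. An unadjusted edgeR p under 0.05 was reached by 3 of the 30, beside 7.09% of all genes tested. DESeq2 called 1, Il2rb. Il2rb, the beta chain of the interleukin 2 receptor, was at 1.38, 1.27, 0.518, 0.526 and 0.509 CPM with vehicle and 2.85, 3.01, 1.38, 3.39 and 2.24 CPM at 1 µg/kg. Its edgeR log2 fold change was 1.61 ± 0.41 (SE, adjusted p = 0.05804), and DESeq2's adjusted p was 0.01537. The T cell receptor subunit Cd3e was at 0.197 to 0.566 CPM with vehicle and 0.188 to 1.08 CPM at 1 µg/kg, so the groups overlapped. The summed list was at 23.8 to 29.7 CPM and 24.0 to 49.7 CPM, with a median log2 fold change of 0.46.

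Of 19 chemokine and receptor genes 1 was called, beside 0.513% of all genes tested. This was Cxcl9, a ligand of CXCR3 known for its induction by interferon gamma. It was at 2.19, 3.14, 1.47, 1.64 and 1.42 CPM with vehicle and 5.50, 7.35, 3.69, 7.44 and 6.97 CPM at 1 µg/kg, without overlap (1.65 ± 0.35, SE, adjusted p = 0.007465). With single-strand counts Cxcl9 was not called (adjusted p = 0.0597). Cxcl10, a ligand of the same receptor, was at 2.42, 2.58, 2.29, 2.56 and 2.09 CPM with vehicle and 8.25, 8.10, 4.57, 5.99 and 6.22 CPM at 1 µg/kg. It also separated the groups but was not called by edgeR (1.47 ± 0.38, SE, adjusted p = 0.07418), and was called by DESeq2 (adjusted p = 0.01932). All 19 had positive values, with a median of 0.88, beside 51.66% positive values over all genes tested. Complement had 2 of 20 called, C1qa and C4b (1.25, adjusted p = 0.01992), beside 0.513% of all genes tested. C4b lost its call without treated replicate 2 or 4 or vehicle replicate 3, 4 or 5 (adjusted p up to 0.101), and the complement count ran from 1 without treated replicate 4 or vehicle replicate 3, 4 or 5 to 4 without treated replicate 3.

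Outside the lists, 29 called genes remained, all higher. Neurl3, a RING-type ubiquitin ligase of the neuralized family, had the lowest p of them, at 8.92, 7.59, 8.76, 5.85 and 7.98 CPM with vehicle and 17.6, 17.8, 14.3, 23.0 and 16.7 CPM at 1 µg/kg (1.19 ± 0.16, SE, adjusted p = 6.851e-06). Apol7c, of the apolipoprotein L family, was at 0.0576, 0.607, 0.173, 0 and 0.113 CPM with vehicle and 4.03, 2.78, 2.57, 4.35 and 2.99 CPM at 1 µg/kg (4.01 ± 0.55, SE, adjusted p = 1.741e-05). Neither gene's groups overlapped. Ubd, a ubiquitin-like modifier induced by interferon gamma, rose by 2.92, BC023105 by 3.40, and Gm8221, with at most 2 counts in a vehicle library, by at least 6.83-fold.

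Several of the 29 are known from white blood cells: Was (1.65) and Nckap1l of actin assembly, Plcb2 (1.78), Myo1g, Cd52, Cd53, Cd72, Csf2rb, Itgb7, Pirb, Plbd1, Tifab and Irf8. Cd72 shares 41.6% of its exonic bases with Tesk1 on the other strand. Cd274, which encodes the checkpoint ligand PD-L1, rose by 0.95 (adjusted p = 0.03523) and Unc93b1, which traffics endosomal Toll-like receptors, by 0.58. Cd274 lost its call without treated replicate 1, 2 or 5 or vehicle replicate 2, 3, 4 or 5 (adjusted p up to 0.157). The rest were 9330175E14Rik (2.46, antisense to Nlrc5 with 1.3% of its exonic bases shared), Wdfy4, Gsdmd, Parp10, Hap1, Cd200, H2-Q5, A230050P20Rik and AW112010. Without treated replicate 4, the library with adrenal transcripts, Cd52 (0.0584), Plbd1 (0.0531), Itgb7 (0.0531), Pirb (0.111), Tifab (0.101), Wdfy4 (0.0923), Hap1 (0.14), A230050P20Rik (0.282), H2-Q5 (0.189) and AW112010 (0.313) lost their calls, the value being the adjusted p. Cd53, Csf2rb, Nckap1l, Parp10 and Cd200 lost theirs without it as well. Pirb, Tifab, Wdfy4, Hap1, A230050P20Rik, H2-Q5 and AW112010 also lost it without at least 1 other library. Cd53 was called in 2 of the 10 fits, those without treated replicate 1 or vehicle replicate 4 (adjusted p up to 0.136 otherwise). Nckap1l lost its call also without treated replicate 1 or 5 or vehicle replicate 2, 3, 4 or 5 (up to 0.188), Csf2rb without treated replicate 2 or vehicle replicate 1, 2 or 3 (up to 0.16), Parp10 without treated replicate 2 or vehicle replicate 2 (up to 0.0643), and Cd200 without treated replicate 2 or 5 or vehicle replicate 2, 3 or 4 (up to 0.198). Gsdmd kept its call without treated replicate 4 and lost it without treated replicate 1, 2 or 5 or vehicle replicate 3, 4 or 5. With single-strand counts 9330175E14Rik (adjusted p = 0.16), Was (0.483), Myo1g (0.605) and Cd72 (0.993) lost calls that had held in all 10 fits, and Gm8221 did so too (0.0642). Of all called genes, 17 were higher with means under 5 CPM in both groups.

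**Figure D4:**
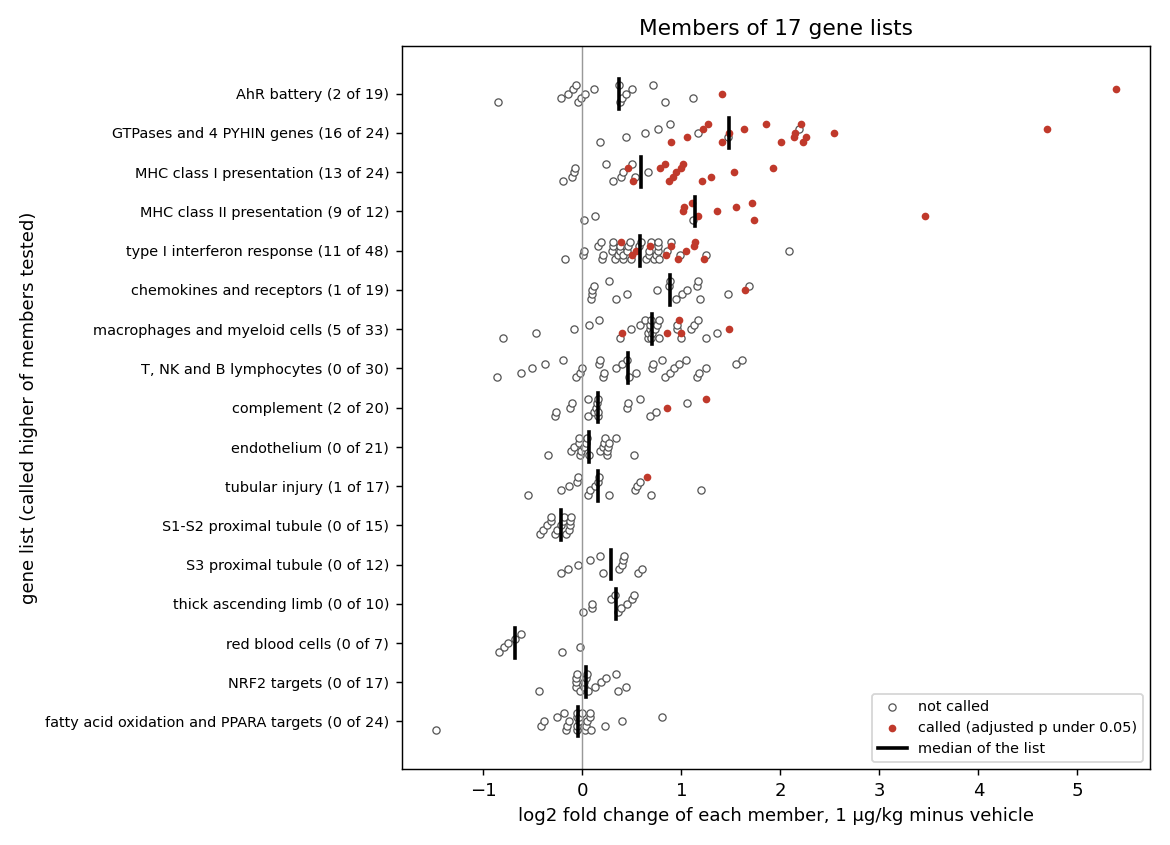
Log2 fold change at 1 µg/kg against vehicle (x axis) of each tested member of 17 gene lists (y axis, with members called higher of members tested), called members in red and list medians as lines. The list of GTPases and PYHIN genes (median 1.48) and class II presentation (median 1.14) lie furthest to the right, and the proximal tubule S1-S2 list lies below 0 in all 15 members with none called.

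With 0.513% of all genes tested called by edgeR, a short list with none called is near that share. No member was called in 26 of 36 lists. These lists held 344 tested members, counting shared members in each list, of which 48 had an unadjusted p under 0.05 (14.0%, beside 7.09% of all genes tested), and DESeq2 called 3, Il2rb, Scnn1g and Rgs5. None was called in the lists of NRF2 targets (median log2 fold change 0.038), androgen-responsive kidney genes (-0.026), fatty acid oxidation (-0.045), cholesterol synthesis (-0.11), fibrosis (0.068), endothelium (0.069), podocytes (0.16) or cell cycle (0.27). Scnn1g, the gamma subunit of the epithelial sodium channel, was at 62.2, 63.6, 61.8, 58.7 and 68.9 CPM with vehicle and 54.2, 51.9, 52.6, 48.1 and 51.5 CPM at 1 µg/kg. All 5 treated libraries lay below the vehicle libraries, with an edgeR log2 fold change of -0.29 ± 0.077 (SE, adjusted p = 0.0853) and a DESeq2 adjusted p of 0.03953.

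Of 15 S1-S2 proximal tubule genes 5 had an unadjusted edgeR p under 0.05, beside 7.09% of all genes tested. While 51.66% of all genes tested had positive values, all 15 S1-S2 genes had negative ones, with a median of -0.22. Their summed level was 27951 and 28253 CPM in vehicle replicates 1 and 2, 22390 to 22962 CPM in the other 3 vehicle libraries and 20314 to 23452 CPM at 1 µg/kg, so the treated libraries overlapped with those 3. Globin and other red blood cell genes had a median of -0.68, with Hbb-bs at 254, 280, 221, 280 and 343 CPM with vehicle and 181, 107, 99.2, 178 and 256 CPM at 1 µg/kg (adjusted p = 0.7354). Of 17 tubular injury genes 1 was called, beside 0.513% of all genes tested. This was Vcam1 (0.65, adjusted p = 0.03393), an adhesion molecule. It lost its call without treated replicate 2, 4 or 5 or vehicle replicate 1, 3 or 4 (adjusted p up to 0.209). The injury markers Havcr1 (0.16, adjusted p = 0.9848) and Lcn2 (0.53, adjusted p = 0.7836) were not called.

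Suox, the mitochondrial sulfite oxidase, was the only gene called lower. It was at 96.5, 87.0, 68.2, 78.1 and 67.0 CPM with vehicle and 61.1, 59.6, 64.2, 58.5 and 55.1 CPM at 1 µg/kg. All treated libraries lay below all vehicle libraries, though treated replicate 3 and vehicle replicate 5 were close. The log2 fold change was -0.41 ± 0.10 (SE, adjusted p = 0.03393). Vehicle replicates 1 and 2 were the highest, and without both the adjusted p was 0.9032. The call was also lost without vehicle replicate 1 (0.2433), 2 (0.1526) or 4 (0.05892), or treated replicate 1 (0.06633), 2 (0.08401), 4 (0.1013) or 5 (0.1297).

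The lowest treated library was largely the same across these genes, while the highest differed between gene groups. Replicate 3 was the lowest of the 5 treated libraries in 70 of the 88 genes called higher (79.5%) and the highest in 0, while over all genes tested it was lowest in 22.0%. It was lowest in 15 of the 16 called GTPases, all 13 called class I genes, 8 of the 9 called class II genes and all 5 called myeloid genes. Replicate 4 was the highest in 37 of the 88 (42.0%), against 25.9% of all genes. It was highest in 7 of the 13 called class I genes, 5 of the 9 class II genes and 3 of the 5 myeloid genes. Of the 16 called GTPases it was highest in 0, and replicate 2 was highest in 10. For Cyp1a1, replicate 3 was also the lowest, at 87.0 CPM beside 90.7 CPM in replicate 1. Leaving out replicate 3 raised the number of called genes to 105.

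At the next lower dose, 0.3 µg/kg, 1 gene was called against vehicle (0.00577% of genes tested), Cyp1a1, at 24.7 ± 6.36 CPM (SD, n = 5). Tested directly, 37 genes were higher at 1 than at 0.3 µg/kg (0.213% of genes tested). This comparison shares the treated libraries with the one against vehicle. Cyp1a1 differed by a log2 fold change of 2.01, Irf1 by 0.97 (adjusted p = 0.006107), Igtp by 1.65 and H2-Ab1 by 1.41 (adjusted p = 0.01073). Fyb (1.46) and C3ar1 (1.36), an adaptor of immune cells and a complement receptor, were called here but not against vehicle. The count fell to 10 without replicate 4 or replicate 5 at 0.3 µg/kg, 19 without replicate 1 at 0.3 µg/kg, and 20, 21, 15 and 24 without replicate 1, 2, 4 or 5 at 1 µg/kg.

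Between 1 and 3 µg/kg, 2 genes were called, both higher at 3 µg/kg (0.0115%). Cyp1a1 went from 99.3 ± 12.1 to 294 ± 58.6 CPM (1.57 ± 0.20, SE, adjusted p = 0.0001375), and Cyp1b1 from 32.5 ± 4.78 to 64.2 ± 11.4 CPM (0.98 ± 0.14, SE, adjusted p = 0.0003867). Irf1 was at 28.4 CPM at 1 µg/kg and 25.1 CPM at 3 µg/kg, and Igtp at 56.4 and 56.7 CPM. A comparison of 3 with 0.3 µg/kg shares no library with that of 1 µg/kg against vehicle, and was added after the data had been seen. It called 77 genes higher (0.444% of genes tested). Of the 88 genes higher at 1 µg/kg, all 88 had positive values there, with a median of 0.87, and 46 were called, beside 47.76% positive values over all genes tested. Without replicate 2 at 3 µg/kg, the library of that group with adrenal transcripts, 44 genes were called higher at 3 than at 0.3 µg/kg, and of the 88 all had positive values and 29 were called. The number called higher was 19 without replicate 5 at 3 µg/kg, and 48, 49 and 45 without replicate 1, 4 or 5 at 0.3 µg/kg.

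Across the 8 dose groups Cyp1a1 had a higher mean at each dose from 0.1 µg/kg on, with 1567 CPM at 10 µg/kg and 2535 CPM at 30 µg/kg. Irf1 and Igtp had their highest means from 1 to 10 µg/kg. Irf1 means were 12.1, 10.9, 13.4 and 14.4 CPM from vehicle to 0.3 µg/kg and 28.4, 25.1, 28.6 and 22.3 CPM from 1 to 30 µg/kg. Igtp means were 12.3, 13.5, 16.3 and 17.9 CPM, then 56.4, 56.7, 54.0 and 29.6 CPM. These lower means at 30 µg/kg were not compared by a test. C1qa means were 21.2, 21.9, 30.3 and 33.2 CPM from 1 to 30 µg/kg.

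**Figure D5:**
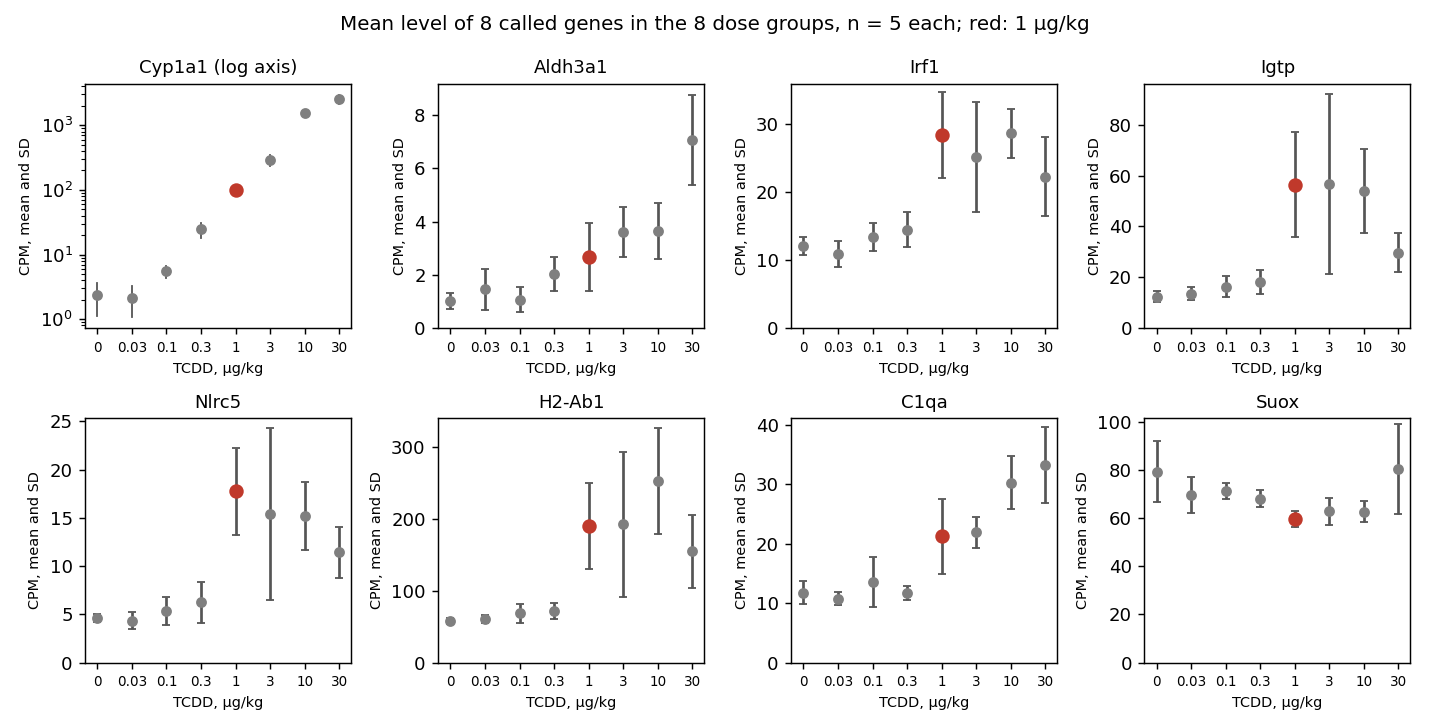
Mean CPM and SD (y axis, n = 5 libraries per group) of 8 called genes at vehicle and 7 TCDD doses in µg/kg (x axis, evenly spaced; Cyp1a1 on a log axis), with 1 µg/kg in red. Irf1, Igtp, Nlrc5 and H2-Ab1 lie higher at 1 than at 0.3 µg/kg, for example Irf1 at 28.4 against 14.4 CPM, while the Cyp1a1 mean is higher at each dose from 0.1 µg/kg on.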

How the data were processed

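Kidney RNA of male mice was sequenced in bulk, 5 mice in each of 8 groups, and 10 libraries are compared here. Each library has its own deposited table of whole-number gene counts. The submitters' processing notes name FastQC 0.11.7, Trimmomatic 0.39, STAR 2.7.3a and DESeq2, and the builds GRCm39 and mm10 with no role, so the build of the counts is not given in the sources used here and no coordinates come from them. A deposited table of transformed values for the whole series was not used. The unstranded column of counts was used, which does not separate genes that overlap on opposite strands. Table lines without a gene entered neither library sizes nor tests. In the 10 libraries, unmapped reads made up 1.529 to 2.375%, reads with several places 7.551 to 9.051%, reads outside features 5.549 to 7.202% and ambiguous reads 5.405 to 5.735%. GENCODE M21 named 52083 of 55359 identifiers, and the 3276 without a name held 0.663% of counts.

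The counts of all 40 libraries were fitted with edgeR 4.0.16 (limma 3.58.1, R 4.3.3), with 8 groups and no covariates, after filterByExpr (17345 genes) and TMM scaling, and the groups were contrasted with the robust quasi-likelihood test. P-values were adjusted by Benjamini-Hochberg over all genes tested, and a gene was called under 0.05. The prior count was 0.125, and each SE is the absolute log2 fold change over the root of its F value. The biological coefficient of variation was 17.1%. The labels give 1 kidney per mouse, so p-values measure the spread between these mice. Reads carry no molecular identifiers, so precision from counts covers counting error only. Replicate pairs differed by more than sampling noise (lowest chi-square per degree of freedom 6.903). The fit was tested on simulated counts. Alternatives were median ratio size factors, no filter, DESeq2 1.42.0, the 2 groups alone, the counts of 1 strand, no robust estimation, an adrenal covariate, a prior count of 2 and leaving out libraries. Omitting vehicle replicates 1 and 2 together, the 2 libraries with most adrenal transcripts (replicate 4 at 1 µg/kg, replicate 1 at 0.03 µg/kg), or these and replicate 2 at 3 µg/kg, was added after seeing the data.

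Gene lists came from general knowledge. They, and the comparison itself, were chosen with earlier results of these data known, so no list was tested and each is described by its counts and median. Named genes were a fixed set of 14, called genes with the largest changes and lowest p-values, up to 5 called members of each list, and other called genes with their folds. Genes named beyond these rules (Cxcl10, C1qb, Il2rb, Scnn1g, Rgs5, Cd3e, Hbb-bs, the interferon and receptor genes and members of lists that were not called) were chosen after their values were seen. 1 called gene is not reported by name here. Figures were drawn with matplotlib 3.10.9 in Python 3.11.15.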

Additional observations from a re-analysis of the deposited data

Results flagged for a closer look

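In each group of 5 libraries, the highest and the lowest value were compared with their nearest neighbour, as a share of the group's range (Dixon's test, critical value 0.71). Of 158 groups of 5 looked at, 16 held a value set apart, where chance gives about 5%. At 1 µg/kg, replicate 4 had the highest Star (185 CPM, next 6.019) and Cyp21a1 (179.7 CPM, next 0.5788) and the lowest Slc12a3 (1103 CPM, next 1299). Replicate 3 had the lowest H2-Q4 (24.54 CPM, next 39.41) and H2-Q7 (11.46 CPM, next 20.55) and the highest Slc34a1 (7025 CPM, next 6317). Replicate 1 had the highest total gene count (20292573, next 16849640), and replicate 2 the lowest Kap (13410 CPM, next 16450). With vehicle, replicate 3 had the lowest Igtp (8.501 CPM, next 12.9) and Iigp1 (7.25 CPM, next 9.666), and replicate 1 the lowest Psmb9 (3.857 CPM, next 4.664) and the highest Parp14 (18.25 CPM, next 15.51) and Cyp21a1 (0.1727 CPM, the others at 0). Vehicle replicate 2 had the highest Apol7c (0.6073 CPM, next 0.1726), and vehicle replicate 5 the highest Gbp10 (1.642 CPM, next 0.7336) and Dusp1 (55.08 CPM, next 32.84).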

How the results depend on the processing

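No paired analysis was possible because the labels carry no replicate numbers, and numbers given in order of deposition pair no libraries. The number of genes called against vehicle was 64 to 105 when 1 library was left out and 56 to 132 under the other settings, and 56 (all higher) without vehicle replicates 1 and 2. With the 2 groups alone, called genes that lost their call included Aldh3a1, Fcgr4, Lcp1, Gbp5, Gbp7, H2-DMb1, C4b, Vcam1, Irf9 and Suox. Genes called lower numbered 0 to 6 when 1 library was left out, 2 with no filter, 0 with the adrenal covariate or without vehicle replicates 1 and 2, and 4 with the 2 groups alone or with DESeq2. Genes called at 1 against 0.3 µg/kg numbered 10 to 51 when 1 library was left out, 22 with the adrenal covariate, 62 with DESeq2 and 13 without the 2 or the 3 libraries with adrenal transcripts. Genes called higher at 3 than at 0.3 µg/kg (77) numbered 19 to 79 when 1 library was left out. The causes were not tested. The 2 genes called at 3 against 1 µg/kg numbered 2 under every setting run.

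Among the named genes that were not called and were followed across the settings, 5 changed sign. Tiparp ran from -0.11 to 0.027 when 1 library was left out and was 0.057 with single-strand counts, 0.066 without vehicle replicates 1 and 2 and 0.0072 and 0.0073 without the 2 or the 3 adrenal-containing libraries. Arnt ran from -0.12 to 0.029, and was 0.0062 with the adrenal covariate, 0.075 without vehicle replicates 1 and 2 and 0.025 without the 2 or the 3 adrenal-containing libraries. Star ran from -0.072 to 3.39, and was -0.089 under the adrenal covariate and -0.072 without the 2 or the 3 adrenal-containing libraries. Havcr1 ran from -0.19 to 0.49, and was -0.10 with the covariate, -0.25 without vehicle replicates 1 and 2 and -0.19 without the 2 or the 3 adrenal-containing libraries. Ahr ran from -0.20 to 0.071, and was 0.060 without vehicle replicates 1 and 2 and 0.071 without the 2 or the 3 adrenal-containing libraries. Low levels limit Ifng, Cyp1a2 and lymphocyte genes, which had under 1 CPM or few CPM in most libraries.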
